A study of Mus musculus with 12 samples.

Results

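Mandibular lymph nodes of wild-type mice, sampled before and after the skin of the ear was challenged with DNFB (1-fluoro-2,4-dinitrobenzene), were compared by RNA sequencing. DNFB is a small reactive chemical that binds to skin proteins and so turns them into targets of T cells. Every mouse was first sensitized with 100 µl of 0.5% DNFB on the abdomen, given on 3 days of which the last was day 2. Sensitized nodes (WT_se) were taken on day 9 without a challenge. Challenged nodes (WT_DTH) were taken on day 10, which was 24 hours after 20 µl of 1% DNFB had been put on the left ear on day 9. The 3 libraries of WT_se and the 3 of WT_DTH were chosen by these labels and are 6 of the 12 libraries in the series. The other 6 come from miR-451a knockout mice given the same sensitization, 3 sensitized (KO_se) and 3 challenged (KO_DTH), and their values are set beside those of wild type where they bear on them. All challenged nodes were taken 1 day later than the sensitized ones, so challenge and day of harvest cannot be told apart. The labels name no strain or age, do not say which side the node came from or how the knockout was made, and give no statement that each group's 3 libraries stand for 3 mice. The p-values below therefore measure the spread between these libraries, which may be technical.

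In contact hypersensitivity, dendritic cells carry the allergen from the skin to the draining node and prime T cells there, and a later contact recalls those T cells to the skin. The node that drains the challenged skin receives cells, fluid and cytokines from it, among them interferons. Interferons bind receptors whose JAK kinases activate STAT transcription factors: type I interferons act through a complex that holds STAT2 and IRF9 and binds the interferon-stimulated response element (ISRE), and interferon-γ acts through STAT pairs that bind the gamma-activated site. The genes switched on in this way encode antiviral proteins, guanylate-binding proteins, antigen-presenting proteins and chemokines. The mandibular nodes lie against the salivary glands, and gland tissue can be dissected together with them.

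Wild-type libraries held 37526923 to 49780657 estimated counts. Node markers were present in each of the 6 libraries: the T cell gene Cd3e lay between 98.4 and 198 CPM (counts scaled to library size, with TMM, edgeR's correction for composition) and the B cell gene Ms4a1 between 175 and 315 CPM. Salivary gland transcripts were present too, and their share differed between the groups. A list of 20 salivary genes took 7.07, 10.3 and 14.5% of counts in the sensitized libraries and 2.34, 3.38 and 2.08% in the challenged libraries (means 10.6 ± 3.73 and 2.6 ± 0.688%, SD, n = 3). Mitochondrially encoded genes took 19.1, 18.1 and 13.8% against 4.37, 5.84 and 5.17%. The erythroid list, mostly globins, took 1.31, 0.649 and 1.32% against 0.264, 0.241 and 0.23%. All 3 shares were lower in every challenged library than in any sensitized one, with a two-sided exact permutation p = 0.1 each, the smallest that 3 libraries against 3 allow. In the knockout the salivary share lay the other way, at 4.67 ± 2.04% sensitized and 7.59 ± 2.98% challenged (SD, n = 3, exact permutation p = 0.3), and the mitochondrial share was 13.7 ± 2.11 and 10.4 ± 5.08%. Muscle genes took 0.00154 to 0.00222% in the 6 wild-type libraries, and a list of 13 keratinocyte genes took 0.000291 to 0.000625%. Of the 13, 5 had 0 counts in all 6 libraries (Krt1, Krt16, Lor, Flg and Ivl) and 4 had 8 counts or fewer in each library. Counts of Xist exceeded those of the Y-linked Ddx3y in 1 of 3 sensitized and 2 of 3 challenged libraries, so both groups held both sexes. In bulk tissue, fewer cells of a type and less RNA per cell cannot be told apart, and this holds for every cell type gene below.

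**Figure D1:**
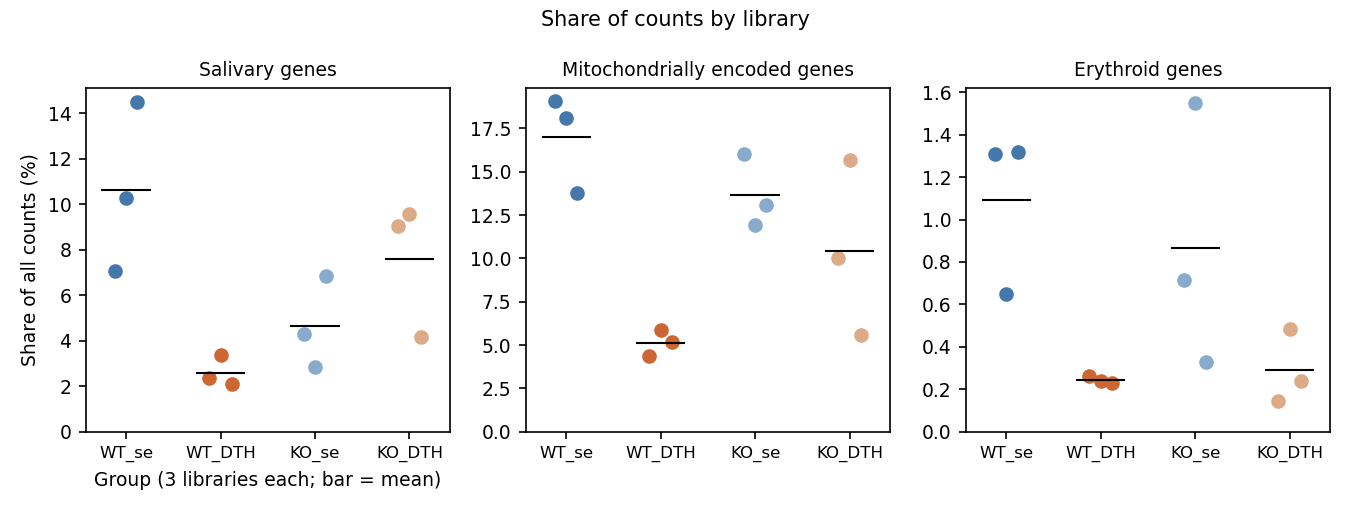
Share of all counts (%, linear axis from 0) taken by the salivary, mitochondrially encoded and erythroid gene lists, 1 point per library and a bar at each group's mean, for the 4 groups of 3 libraries. In wild type the salivary share lies at 7.07 to 14.5% when sensitized and 2.08 to 3.38% when challenged, without overlap.

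Challenge was accompanied by many changes in both directions. Of 20034 genes tested, 3755 (18.7%) passed an adjusted p of 0.05 (edgeR quasi-likelihood test, Benjamini-Hochberg over all genes, two-sided), of which 1957 (9.77% of those tested) rose and 1798 (8.97%) fell. Counts of list members below are to be read beside the shares of 9.77 and 8.97%. More than 2-fold rises numbered 522 (2.61%) and more than 2-fold falls 996 (4.97%). Falls of any size numbered 1022 without WT_DTH replicate 1 and 911 without WT_DTH replicate 3, in place of 1798. The libraries of the 2 groups did not overlap at 7116 genes (35.5%). With counts scaled to 20 genes of all leukocytes instead of TMM, the log2 fold change of all genes moved by −0.15 in the median, and 3889 genes (19.4%) passed, 1034 (5.16%) higher and 2855 (14.3%) lower, so that 26.6% of calls were rises in place of 52.1%. In the knockout the same contrast called 1938 genes (9.67%), 1164 (5.81%) higher and 774 (3.86%) lower. The difference between the 2 challenge effects (wild type minus knockout, tested as an interaction) was called at 422 genes (2.11%), 88 (0.439%) higher and 334 (1.67%) lower.

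The salivary difference was also put into the model. With the log2 salivary share of each library as covariate 272 genes (1.36%) passed, 236 (1.18%) higher and 36 (0.18%) lower. With 2 principal components of the salivary genes as covariates 52 genes (0.26%) passed, 49 (0.245%) higher and 3 (0.015%) lower, and the median standard error of a log2 fold change over all genes was 0.48 in place of 0.25. Leaving out WT_se replicate 3 and WT_DTH replicate 2, whose salivary shares were the highest of their groups, 2436 of 20564 genes (11.8%) passed, 1397 (6.79%) higher and 1039 (5.05%) lower. Counts from these fits are given below as "with the salivary share" and "with 2 salivary components".

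Of the interferon-induced genes that rose, 6 are shown first by their promoters, from 250 bases before to 50 bases after the start of the gene (RefSeq, GRCm38.p6). Capitals mark each match to the ISRE core, spelled GAAANNGAAA and searched on both strands. The 6 are examples that all carry a match. Other interferon-induced genes that rose, such as Tap1, Parp12, Oasl2 and Ifi47, had none in their windows. Stat2, Cxcl10, Gbp2, Irgm1 and Ifitm3 passed with 2 salivary components as well as without, and Isg15 carries 3 matches that overlap one another.
Stat2 promoter (chr10:128270248-128270547, plus strand): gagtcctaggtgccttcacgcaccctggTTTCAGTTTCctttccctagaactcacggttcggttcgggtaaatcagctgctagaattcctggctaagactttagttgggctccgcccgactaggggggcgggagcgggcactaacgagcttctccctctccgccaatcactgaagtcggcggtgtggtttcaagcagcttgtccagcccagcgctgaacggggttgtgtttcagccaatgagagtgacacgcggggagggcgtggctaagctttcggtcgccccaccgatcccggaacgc
Cxcl10 promoter (chr5:92348840-92349139, minus strand): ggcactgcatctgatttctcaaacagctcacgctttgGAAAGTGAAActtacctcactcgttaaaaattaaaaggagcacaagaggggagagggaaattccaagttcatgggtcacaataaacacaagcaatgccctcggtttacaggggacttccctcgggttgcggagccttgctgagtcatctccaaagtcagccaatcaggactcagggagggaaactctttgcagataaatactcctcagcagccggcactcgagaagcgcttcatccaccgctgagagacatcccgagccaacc
Gbp2 promoter (chr3:142620413-142620712, plus strand): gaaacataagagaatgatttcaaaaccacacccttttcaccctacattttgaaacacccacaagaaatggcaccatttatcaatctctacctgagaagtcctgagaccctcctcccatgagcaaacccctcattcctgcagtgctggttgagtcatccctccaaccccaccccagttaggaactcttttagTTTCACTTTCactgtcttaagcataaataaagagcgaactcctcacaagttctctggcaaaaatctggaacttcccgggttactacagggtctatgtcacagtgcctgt
Irgm1 promoter (chr11:48871371-48871670, minus strand): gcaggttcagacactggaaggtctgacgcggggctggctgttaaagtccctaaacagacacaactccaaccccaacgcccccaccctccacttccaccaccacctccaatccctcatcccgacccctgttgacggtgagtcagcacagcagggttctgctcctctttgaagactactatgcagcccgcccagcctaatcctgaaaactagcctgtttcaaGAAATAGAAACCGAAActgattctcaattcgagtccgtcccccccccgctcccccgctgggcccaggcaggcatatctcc
Ifitm3 promoter (chr7:141010695-141010994, minus strand): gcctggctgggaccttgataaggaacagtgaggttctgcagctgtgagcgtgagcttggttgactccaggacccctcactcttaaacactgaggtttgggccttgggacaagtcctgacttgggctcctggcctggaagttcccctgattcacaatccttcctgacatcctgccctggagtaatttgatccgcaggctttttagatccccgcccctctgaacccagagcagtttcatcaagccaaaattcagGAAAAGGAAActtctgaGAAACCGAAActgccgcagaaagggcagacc
Isg15 promoter (chr4:156200769-156201068, minus strand): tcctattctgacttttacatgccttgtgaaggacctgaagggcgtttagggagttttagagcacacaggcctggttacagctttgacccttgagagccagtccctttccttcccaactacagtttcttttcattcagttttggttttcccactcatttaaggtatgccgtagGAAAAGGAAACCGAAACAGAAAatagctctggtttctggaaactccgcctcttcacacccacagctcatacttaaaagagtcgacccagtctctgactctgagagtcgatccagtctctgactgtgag

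Such a match stood in the promoter of 1131 of 32851 windows of this length in the table (3.44%) and of 489 of the 12241 tested genes that have a window (3.99%). Among genes that rose it stood at 119 of 1502 (7.92%), and among those that rose more than 2-fold at 65 of 377 (17.2%). Among genes that fell it stood at 36 of 1265 (2.85%), and among genes not called at 334 of 9474 (3.53%). Genes that rose in both genotypes had it at 93 of 684 (13.6%), whereas genes that rose in wild type and were not called in the knockout had it at 26 of 813 (3.2%). It stood at 9 of the 10 guanylate-binding and immunity-related GTPase genes with a window, at 11 of 23 antiviral effectors and at 0 of 17 salivary genes. The core of the gamma-activated site, TTCNNNGAA, stood at 8.42% of the tested genes and at 9.12% of those that rose. Among genes that rose more than 2-fold it stood at 49 of 377 (13%). Genes that rose in both genotypes had it at 83 of 684 (12.1%), and those not called in the knockout at 54 of 813 (6.64%). On the lists it stood at 6 of the 10 GTPase genes, 5 of 23 antiviral effectors and 1 of 17 salivary genes. A match describes the letters of these windows only.

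Transcripts of the interferons themselves were scarce, and those of the factors that carry their signal rose. Ifnb1, the first type I interferon made in most responses, had 0 counts in 5 of the 6 libraries and 3 in WT_DTH replicate 2. Ifna2 and Ifnl2 had 0 counts throughout, and Ifna4 had 1 count in each of 2 challenged libraries. Ifng (ENSMUSG00000055170), the interferon of T and NK cells, stood at 1.18, 2.22 and 2.09 CPM in the sensitized and 6.98, 3.72 and 7.73 CPM in the challenged libraries, without overlap (log2 fold change 1.74 ± 0.33 SE, adjusted p = 0.00312). The receptor genes Ifnar1, Ifnar2 and Ifngr1 did not pass, with log2 fold changes of −0.02, −0.07 and −0.26, and Ifngr2, named after its value was seen, fell by 0.30 on the log2 scale (adjusted p = 0.0119). Stat2 (ENSMUSG00000040033), a STAT used by type I and type III interferons, stood at 35.4, 33.8 and 34.1 CPM in the sensitized and 157, 127 and 142 CPM in the challenged libraries. Its rise of 2.04 ± 0.15 (adjusted p = 1.61e-05) was 1.99 in the knockout and 1.69 with 2 salivary components (adjusted p = 0.0386). Irf9, its partner in the ISRE-binding complex, rose by 0.99 ± 0.13. Irf7, a factor that amplifies type I interferon production, stood at 108, 64.5 and 48.8 CPM against 392, 348 and 360 CPM (2.31 ± 0.29, adjusted p = 0.000236). Irf1, a factor induced above all by interferon-γ, rose by 0.80 ± 0.11, Irf8 by 1.19 ± 0.11 and Stat3, which serves IL-6 and IL-10 among others, by 1.03 ± 0.09. Of 18 tested genes of interferon signalling 11 rose and 1 fell, beside 9.77 and 8.97% of all genes, with a median log2 fold change of 0.73, where the median of all genes was −0.009. In the knockout 10 of the 18 rose and 0 fell, and at 0 of them was a difference between the genotypes called. With the salivary share 4 of the 18 passed and with 2 salivary components 1, at medians of 0.64 and 0.57.

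Sensors of viral nucleic acid rose as well. Ifih1 and Dhx58, RNA sensors of the RIG-I family, rose by 1.67 ± 0.24 and 2.05 ± 0.24. Zbp1, a sensor of Z-form nucleic acid that can start necroptosis, stood at 59.7, 40.2 and 25.8 CPM in the sensitized and 210, 195 and 210 CPM in the challenged libraries (2.29 ± 0.26, adjusted p = 0.000138). Ifi204, a DNA sensor with near copies in the genome, rose by 3.16 ± 0.34, and Tlr7, an endosomal receptor for single-stranded RNA, by 1.52 ± 0.17. Of 18 sensor genes 14 rose, the adaptor Mavs fell by 0.47 on the log2 scale (adjusted p = 0.0471), and Tlr3, Tmem173 and Aim2 did not pass. The knockout gave 13 rises among the same 18, and the medians were 1.20 and 1.19. With the salivary share 4 passed and with 2 salivary components 1, at medians of 1.19 and 1.16.

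All 30 antiviral effectors on the list rose, by 0.50 to 3.18 on the log2 scale. Isg15, a ubiquitin-like protein attached to others during the interferon response, stood at 10.8, 7.66 and 4.19 CPM against 65.7, 70.6 and 59.9 CPM (3.12 ± 0.38, adjusted p = 0.000195). Ifit1, which binds foreign RNA ends, stood at 15.8, 6.43 and 3.81 CPM against 55.1, 65.6 and 43.7 CPM (2.67 ± 0.43, adjusted p = 0.00132). The challenged libraries were alike at both genes, whereas the sensitized ones spread more widely, with WT_se replicate 1 the highest and WT_se replicate 3 the lowest. Ifitm3, which blocks the entry of viruses into cells, rose from 18.5, 21.1 and 23.2 CPM to 146, 122 and 105 CPM (2.57 ± 0.18, adjusted p = 1.5e-05, or 0.0365 with 2 salivary components). Oasl2, of the oligoadenylate synthetase family, rose by 2.88 ± 0.31, Parp12 by 1.81 ± 0.16 and Parp14 by 1.58 ± 0.17. The median of the 30 was 1.82 in wild type and 2.63 in the knockout, where 29 rose, and a difference between the genotypes was called at 0 of the 30. With the salivary share 11 of the 30 passed at a median of 1.87, and with 2 salivary components 4 passed at a median of 1.85.

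Guanylate-binding proteins and immunity-related GTPases, which attack the vacuoles of intracellular microbes, rose at 16 of 17 genes. These genes are close copies of one another, so counts may be split between them. Gbp2 (ENSMUSG00000028270) stood at 45.7, 49.4 and 33.8 CPM in the sensitized and 227, 190 and 170 CPM in the challenged libraries (2.19 ± 0.17, adjusted p = 1.64e-05). Irgm1, a regulator of the GTPases, stood at 43.7, 39.3 and 40.2 CPM against 127, 96.8 and 115 CPM (1.46 ± 0.13, adjusted p = 2.71e-05), and its rise in the knockout was 2.14. Gbp3 rose by 1.22 ± 0.16, Gbp4 by 1.04 ± 0.12 and Ifi47 by 1.52 ± 0.16. Irgm2 was the member that did not pass, at 0.42 ± 0.20. The knockout gave rises at 17 of 17, with a median of 1.51 against 1.22 in wild type. With the salivary share 6 passed and with 2 salivary components 2, at medians of 1.36 and 1.03.

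**Figure D2:**
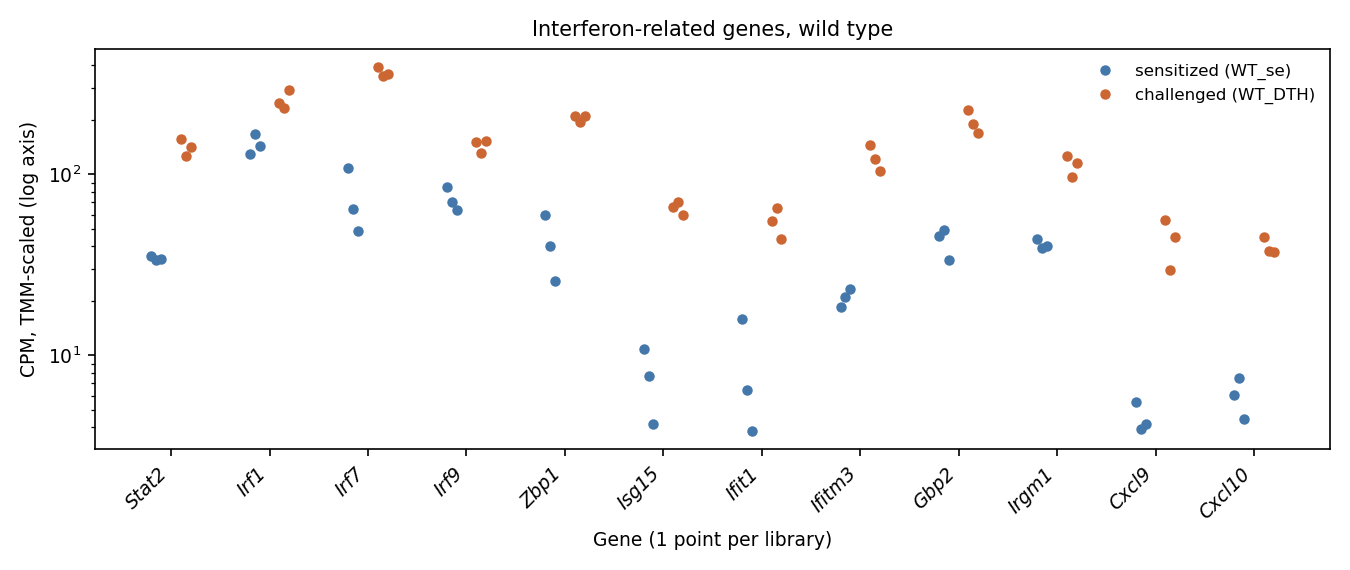
CPM (log axis) of 12 interferon-related genes in each of the 3 sensitized and 3 challenged wild-type libraries, 1 point per library. The 2 groups are apart at each gene shown, for example at Stat2 (33.8 to 35.4 against 127 to 157 CPM) and Isg15 (4.19 to 10.8 against 59.9 to 70.6 CPM).

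Genes of antigen presentation rose by less. On the class I side, which shows peptides from inside the cell to CD8 T cells, 17 of 20 genes rose, with a median of 0.57. Tap1, a subunit of the peptide transporter, stood at 158, 147 and 139 CPM against 365, 312 and 378 CPM (1.25 ± 0.11, adjusted p = 2.35e-05). Psme2, an activator of the proteasome, rose by 1.27 ± 0.15 and Psmb9, an immunoproteasome subunit, by 0.96 ± 0.11. Of the chains of the class I molecule, H2-K1 rose by 0.34 ± 0.09, H2-D1 by 0.42 ± 0.08 and B2m by 0.38 ± 0.12. Erap1 (−0.05), H2-Q7 (0.28) and Tapbpl (0.31) did not pass. With leukocyte scaling 12 of the 20 passed, with the salivary share 5 and with 2 salivary components 1, and in the knockout 16 rose, with a median of 0.68.

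Class II genes, which show peptides from outside the cell to CD4 T cells, rose at 11 of 12, with a median of 0.87. Their master regulator Ciita stood at 97.3, 96.1 and 132 CPM against 186, 150 and 190 CPM (0.69 ± 0.16, adjusted p = 0.0111). H2-Aa stood at 1789, 1528 and 1413 CPM against 2628, 2320 and 2869 CPM (0.73 ± 0.13, adjusted p = 0.00263). Lgmn, a lysosomal protease that cuts antigen, stood at 43.4, 47.7 and 45.3 CPM against 120, 134 and 129 CPM. Its rise of 1.49 ± 0.08 had the smallest adjusted p of any gene, 1.34e-06, shared with Plac8 and Ms4a6d. H2-Ob, an inhibitor of peptide loading, did not pass. In the knockout 3 of the 12 rose and the median was 0.27. The difference between genotypes was called at Lgmn (0.57 ± 0.11, adjusted p = 0.0309), H2-Aa (0.82 ± 0.19, adjusted p = 0.0438) and H2-Oa. In the fit with the salivary share 2 of the 12 passed and the median was 0.42, and with 2 salivary components 1 passed at a median of 0.62.

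The chemokines that draw CXCR3-bearing T cells rose. Cxcl10 stood at 6.01, 7.52 and 4.47 CPM in the sensitized and 45.3, 37.6 and 37.4 CPM in the challenged libraries (2.74 ± 0.20, adjusted p = 1.61e-05). Cxcl9 stood at 5.55, 3.91 and 4.19 CPM against 56.1, 29.8 and 45.1 CPM (3.26 ± 0.34, adjusted p = 7.32e-05). Cxcl11 had 0 counts in all 3 sensitized libraries and 126 over the 3 challenged ones, so it was at least 30.8-fold higher, set against 3 counts over the sensitized group. Among 18 genes of this type 1 helper axis 8 rose and 0 fell. Tbx21, the lineage factor of Th1 cells, rose by 0.71 ± 0.22 (a call lost without any 1 library other than WT_se replicate 3), Runx3 by 0.70 ± 0.10 and Il18 by 1.28 ± 0.31. Il12b, a subunit of IL-12, did not pass at 3.34, 10.5 and 7.62 CPM against 3.82, 5.56 and 5.02 CPM (−0.57 ± 0.43). The knockout gave 8 rises and 1 fall on the list, with 0 differences called between the genotypes. With the salivary share 4 of the 18 rose and with 2 salivary components 1, at medians of 0.82 and 0.43 in place of 0.71.

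Cytokines of other helper types stood at low levels. Il17a stood at 0.345, 0.696 and 0.619 CPM against 0.637, 0.605 and 1.07 CPM, and did not pass (0.48 ± 0.36, adjusted p = 0.418). In the knockout it fell by 1.51 on the log2 scale, and the difference between genotypes was called (1.99 ± 0.46, adjusted p = 0.0476). Il17f did not pass (0.85 ± 0.51). Il22, made by Th17 and innate lymphoid cells, stood at 0.173, 0 and 0.0952 CPM against 0.841, 0.789 and 1.12 CPM, and rose by 3.34 ± 0.81 (adjusted p = 0.0123). Il17re, a receptor subunit for IL-17C, fell by 1.21 on the log2 scale. Ahr, a sensor of aromatic compounds that supports Il22, rose by 1.06 ± 0.12. Of all genes 9.77% rose and 8.97% fell. On the Th17 list of 14 genes 3 rose (Il22, Ahr and Batf) and 2 fell, Il17re among them, with a median of 0.54. In the knockout 0 rose and 3 fell. With the salivary share and with 2 salivary components 0 of the 14 passed, at medians of 0.49 and −0.02.

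Of 13 tested genes of the Th2 axis 0 rose and 1 fell, the chemokine receptor Ccr8 (−0.96 ± 0.27, adjusted p = 0.0251). It did not pass without WT_se replicate 1, WT_se replicate 2, WT_DTH replicate 1 or WT_DTH replicate 2. Il4, at 0.107 CPM or above in 5 of 6 libraries, gave 1.16 ± 1.31, Il13 gave 0.48 ± 0.58 and Gata3, the Th2 lineage factor, gave −0.27 ± 0.17, none of which passed. Among 18 genes of regulatory T cells and checkpoints 5 rose and 1 fell. Cd274, the gene of PD-L1 and itself induced by interferon, stood at 48.7, 53.4 and 42.4 CPM against 174, 128 and 156 CPM (1.67 ± 0.18, adjusted p = 9.33e-05). Havcr2 rose by 1.07 ± 0.19, Lgals9 by 0.54 ± 0.15, Tgfb1 by 0.39 ± 0.09 and Pdcd1lg2 by 1.02, while Ikzf2, a factor of regulatory T cells, fell by 0.47 on the log2 scale. Foxp3 (0.14 ± 0.12), Il10 (0.11 ± 0.25) and Ido1 (−1.68 ± 1.56) did not pass. With leukocyte scaling 2 rose, with the salivary share 1 and with 2 salivary components 0. The list gave 9 rises without WT_DTH replicate 1 and 3 without WT_se replicate 3. Of 17 cytotoxic and NK cell genes only Gzmb, the granule protease of killer cells, passed, at 14.6, 11.6 and 5.12 CPM against 53.3, 44.7 and 46.2 CPM (2.21 ± 0.36, adjusted p = 0.0014).

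Genes of inflammatory monocytes and Fc receptors rose at 18 of 20, with a median of 1.67. Ms4a6d (ENSMUSG00000024679), a membrane protein of monocytes and macrophages, stood at 3.97, 3.83 and 3.74 CPM in the sensitized and 80.7, 61.6 and 47.5 CPM in the challenged libraries. It rose by 4.04 ± 0.22 in wild type (adjusted p = 1.34e-06), by 3.51 in the knockout and by 3.89 with 2 salivary components (adjusted p = 0.0106). Plac8, abundant in monocytes and plasmacytoid dendritic cells, stood at 97.3, 77.9 and 70.9 CPM against 427, 389 and 358 CPM (2.25 ± 0.12, adjusted p = 1.34e-06). Its rise in the knockout was 1.51, and the difference was called (0.74 ± 0.17, adjusted p = 0.0438). Fcgr1, the high-affinity receptor for IgG, stood at 3.88, 2.73 and 1.76 CPM against 39.9, 30.9 and 18.8 CPM (3.42 ± 0.34, adjusted p = 5.43e-05). At these 3 genes WT_DTH replicate 1 was the highest and WT_DTH replicate 3 the lowest of the challenged libraries. Fcgr2b, the inhibitory IgG receptor, rose by 1.55 ± 0.14, Fcgr3 by 1.73 ± 0.21 and Ms4a4c by 1.97 ± 0.17. F13a1 and Fn1 did not pass. The knockout gave 16 rises on the list, with a median of 1.46. In the fit with the salivary share 10 of the 20 passed at a median of 1.73, and with 2 salivary components 3 passed at a median of 1.30. Without each library in turn 18 passed each time.

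The other genes named for the size or the p of their rise have various roles. Ly6i, one of a family of near-identical surface proteins, stood at 1.21, 1.69 and 2.74 CPM against 54.9, 34.1 and 33.9 CPM (4.43 ± 0.40, adjusted p = 3.05e-05). Slfn4, of the schlafen family, rose by 4.10 ± 0.50 and Slamf8, a receptor of myeloid cells, by 3.66 ± 0.27. Tgfbi, a matrix protein made by macrophages, stood at 23.5, 30.5 and 36.0 CPM against 305, 211 and 180 CPM (2.95 ± 0.20), and Mmp14, a membrane metalloproteinase, rose by 2.49 ± 0.18. Saa3, an acute-phase protein of macrophages, stood at 0, 0 and 0.19 CPM against 14.2, 8.35 and 9.8 CPM (7.23 ± 1.07, adjusted p = 0.000731). Ffar2, a receptor for short-chain fatty acids on neutrophils and other leukocytes, stood at 0.345, 0 and 0.309 CPM against 5.59, 6.04 and 6.01 CPM (4.73 ± 0.61). Inhba, a subunit of activin A, and F7, coagulation factor VII, had 0 counts in the sensitized libraries and were at least 46.5-fold and 41.4-fold higher. Ddx4, a helicase of germ cells, and Creg2 had 0 counts there as well and were at least 22.3-fold and 21.8-fold higher, at 0.913 CPM or less in each challenged library. Cyp4f37 and Tmprss6, the other 2 of the 10 largest rises, gave 4.78 ± 1.28 and 4.57 ± 1.21 at 1.8 CPM or less. The difference between genotypes was called at Inhba, which did not pass in the knockout (1.38 ± 0.59).

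Chemokines of the CC family rose at 9 of 13 genes. Ccl7, a ligand for monocytes, stood at 1.41, 1.53 and 1.21 CPM against 10.9, 9.03 and 7.11 CPM (2.70 ± 0.23, adjusted p = 2.5e-05). Ccl6 rose by 1.68 ± 0.17 and Ccl9 by 1.58 ± 0.18. Ccl2, the main ligand of CCR2, did not pass at 1.67, 4.1 and 1.98 CPM against 10.7, 6.59 and 3.95 CPM (1.46 ± 0.48, adjusted p = 0.0521). Genes of the inflammasome and the IL-1 system rose at 12 of 16. Il1b stood at 25, 37.9 and 32.3 CPM against 186, 114 and 112 CPM (2.12 ± 0.27, adjusted p = 0.000258). Its antagonist Il1rn, which occupies the same receptor without signalling, stood at 3.34, 1.77 and 2.83 CPM against 50.5, 34.5 and 31.6 CPM (3.88 ± 0.33, adjusted p = 2.35e-05). Casp4 (caspase-11), which senses lipopolysaccharide in the cytosol, rose by 1.41 ± 0.12 and Mefv, the gene of pyrin, by 2.41 ± 0.26. Il1a did not pass (−0.84 ± 0.31). When the salivary share entered the model 4 of the 16 rose, and with 2 salivary components 2, at medians of 0.62 and 0.54 in place of 1.04. On the CC list the same fits left 2 rises each, at medians of 1.60 and 1.16 in place of 1.57.

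Complement genes rose at 8 of 16 and fell at 1, Serping1, the gene of the C1 inhibitor (−1.77 ± 0.49, adjusted p = 0.0245). Cfb, factor B of the alternative pathway, stood at 16.2, 18.8 and 10.7 CPM against 206, 147 and 131 CPM (3.41 ± 0.30, adjusted p = 2.71e-05), and C3 rose by 1.73 ± 0.23. C1qa and C1qc did not pass (0.18 ± 0.19 and 0.19 ± 0.20). Among 14 genes of macrophage activation 9 rose, among them Cybb, the catalytic subunit of the phagocyte oxidase (1.58 ± 0.17), Acod1, which makes itaconate (2.35 ± 0.54), and Tnf (0.71 ± 0.21, adjusted p = 0.0322, but −0.11 with 2 salivary components). Nos2 (2.75 ± 1.34) and Arg1 (−1.04 ± 0.67), the enzymes that compete for arginine, did not pass, and Il6 did not either (1.16 ± 0.41, adjusted p = 0.0672). In the fit with the salivary share 1 complement gene rose and with 2 salivary components 0, at medians of 0.63 and 0.25 in place of 0.65. On the macrophage activation list 0 passed in both fits, at medians of 1.19 and 0.73 in place of 1.04.

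Neutrophil genes rose at 11 of 18, with a median of 1.44. S100a8, a subunit of calprotectin, stood at 11.6, 26.2 and 21.1 CPM against 85.6, 49.0 and 61.4 CPM (1.73 ± 0.39, adjusted p = 0.00807). Csf3r, the receptor for the growth factor G-CSF, stood at 9.64, 12.7 and 7.55 CPM against 53.7, 26.5 and 28.7 CPM (1.86 ± 0.32, adjusted p = 0.00164). WT_DTH replicate 1 was the highest library at both genes. Retnlg did not pass (1.26 ± 0.45). In the knockout 2 of the 18 rose and the median was −0.11, with 0 differences between the genotypes called. The list's share of counts was 0.0157 ± 0.00383 and 0.0642 ± 0.0178% in wild type and 0.0490 ± 0.0109 and 0.0585 ± 0.0226% in the knockout (SD, n = 3), so the sensitized wild-type libraries lay lowest. Once the salivary share was fitted, 0 of the 18 passed at a median of 0.35. Without WT_se replicate 1 the count was 5, without WT_DTH replicate 2 it was 13. On the list of 12 genes that IL-17 and acute inflammation induce 5 rose, Saa3, Cxcl2 (1.74 ± 0.37), S100a8, S100a9 (1.52 ± 0.38) and Lcn2 (1.45 ± 0.34), of which the knockout called 1. When the salivary share entered the model 0 of the 12 passed at a median of 0.40, and with 2 salivary components 0 passed at 0.66, in place of 1.30.

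**Figure D3:**
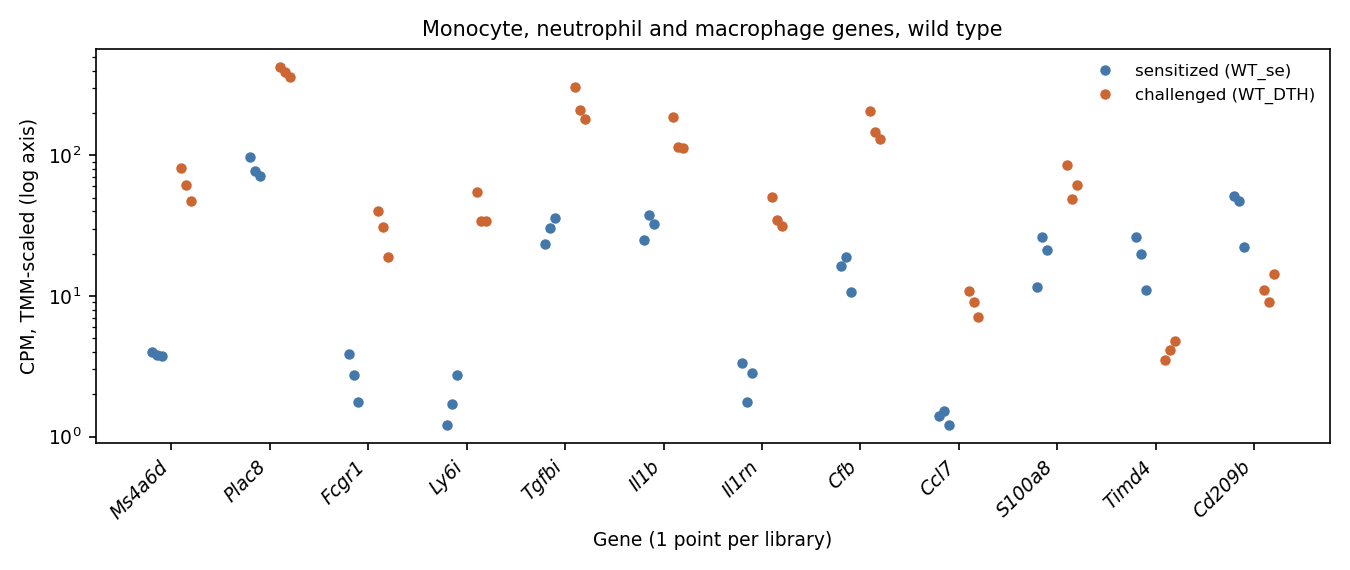
CPM (log axis) of 12 genes of monocytes, neutrophils, macrophages and their chemokines in each of the 3 sensitized and 3 challenged wild-type libraries, 1 point per library. Ms4a6d lies at 3.74 to 3.97 CPM when sensitized and 47.5 to 80.7 CPM when challenged, and Timd4 and Cd209b lie the other way.

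Genes of macrophages that live in the sinuses of the node moved both ways. Timd4, a receptor for dying cells, fell from 26.4, 19.9 and 11.1 CPM to 3.5, 4.09 and 4.74 CPM (−2.21 ± 0.33, adjusted p = 0.000731). It fell by 2.68 on the log2 scale in the knockout and by 3.18 with 2 salivary components (adjusted p = 0.0365). Cd209b, a lectin of marginal and medullary macrophages, fell from 51.0, 47.5 and 22.3 CPM to 11.1, 9.01 and 14.2 CPM (−1.81 ± 0.32, adjusted p = 0.00231), and had a log2 fold change of −2.94 in the knockout. Siglec1, the sialic acid receptor of subcapsular macrophages and itself induced by interferon, rose from 13.7, 10.1 and 9.02 CPM to 39.6, 25.8 and 24.7 CPM (1.45 ± 0.24, adjusted p = 0.00139), and Cd68 by 1.47 ± 0.18. Of 14 tested genes 5 rose and 3 fell, the third being Lyve1 (−1.88 ± 0.61, adjusted p = 0.0496). In the fit with the salivary share 1 rose and 2 fell, and with 2 salivary components 1 fell.

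Dendritic cell genes moved both ways as well, where 9.77% of all genes rose and 8.97% fell. Of 15 conventional dendritic cell genes 5 rose and 1 fell, of 14 genes of mature and migratory dendritic cells 4 rose and 1 fell, and of 10 plasmacytoid genes 3 rose and 2 fell. With the salivary share these lists gave 2, 0 and 1 rises, and with 2 salivary components 1, 0 and 0, with 0 falls in both fits. The median of the mature and migratory list was 0.66 and −0.06 in these fits, in place of 0.41. Sirpa, which marks type 2 conventional dendritic cells and macrophages, stood at 20.6, 30.9 and 37.9 CPM against 160, 118 and 129 CPM (2.18 ± 0.20, adjusted p = 3e-05). The costimulatory genes Cd80, Cd86 and Cd40 rose by 1.71 ± 0.27, 1.30 ± 0.16 and 1.09 ± 0.17. Xcr1 and Clec9a, markers of type 1 conventional dendritic cells, did not pass (−0.72 ± 0.41 and −0.22 ± 0.41), nor did Fscn1, a marker of migratory dendritic cells, at 123, 223 and 160 CPM against 160, 250 and 374 CPM. Of the plasmacytoid genes, Siglech fell from 16.9, 23.6 and 18.0 CPM to 7.14, 6.95 and 7.99 CPM (−1.41 ± 0.23, adjusted p = 0.0014) and Ccr9 by 1.03 on the log2 scale, while Bst2, which interferon also induces, rose by 1.56 ± 0.19. Siglech fell by 2.31 and Ccr9 by 0.95 on the log2 scale in the knockout, and both passed there. On a list of 15 tested genes of mast cells, basophils and eosinophils 0 rose and 4 fell, with a median of −0.32 and 7 members above 0, up to 1.87 at the basophil protease Mcpt8, which did not pass. The 4 that fell are mast cell proteases: Cma1 (−1.44 ± 0.35), Tpsb2 (−1.20 ± 0.32), Cpa3 (−1.25 ± 0.37) and Mcpt4 (−1.16 ± 0.35), with 5 falls in the knockout. The count was 4 without WT_DTH replicate 1, 2 without WT_se replicate 1, 1 without WT_se replicate 3, and 0 without WT_se replicate 2, WT_DTH replicate 2 or WT_DTH replicate 3.

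T cell genes fell and B cell genes rose. Cd3e, a chain of the T cell receptor complex, stood at 190, 198 and 189 CPM in the sensitized and 98.4, 129 and 118 CPM in the challenged libraries (−0.74 ± 0.10, adjusted p = 0.000485). Cd4 stood at 149, 154 and 139 CPM against 78.0, 103 and 80.4 CPM (−0.75 ± 0.12, adjusted p = 0.000906), and Cd8a at 147, 170 and 163 CPM against 92.5, 115 and 106 CPM (−0.61 ± 0.11, adjusted p = 0.00177). WT_DTH replicate 1 was the lowest library at each of the 3 genes. Of 13 genes of the receptor complex and coreceptors 0 rose and 11 fell, with a median of −0.60, and Cd2 and Zap70 did not pass. Without WT_DTH replicate 1 the count of falls was 6, and without WT_se replicate 2 it was 7. In the knockout 6 fell, with a median of −0.43, and the difference between genotypes was called at Cd3e (−0.64 ± 0.14, adjusted p = 0.0429). In the fits with the share and with 2 components 0 of the 13 passed, at medians of −0.55 and −0.50.

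Genes of naive and resting T cells fell at 14 of 20, with a median of −0.56. Cd28, the main costimulatory receptor, stood at 343, 310 and 276 CPM against 136, 150 and 130 CPM (−1.16 ± 0.15, adjusted p = 0.000302). Ccr7, which leads T cells and dendritic cells into the node, stood at 1027, 1201 and 1019 CPM against 674, 781 and 813 CPM (−0.52 ± 0.12, adjusted p = 0.00954, and 0.0619 without WT_DTH replicate 1). Cd27 fell by 0.76, Themis by 1.00, Lef1 by 0.66 and Il7r by 0.81 on the log2 scale. Satb1, a chromatin organizer named after its value was seen, rose by 0.43 ± 0.10. In the knockout 4 fell and 1 rose, with a median of −0.19, and a difference was called at 0 of the 20. In the fits with the share and with 2 components 0 of the 20 passed, at medians of −0.48 and −0.53. Of 16 genes of early T cell activation 6 rose and 2 fell. Tnfsf14 (LIGHT) rose by 1.55 ± 0.27 and Egr2 by 0.52 ± 0.13, Nr4a3 fell by 0.62 and Cd40lg by 1.09 on the log2 scale, and Cd69 did not pass (−0.06 ± 0.18). The number of rises was 2 without WT_se replicate 1 or WT_se replicate 3, and 3 without WT_se replicate 2 or WT_DTH replicate 3. With leukocyte scaling 1 of the 16 rose, and with the salivary share or 2 salivary components 0 passed, at medians of 0.10 and 0.01 in place of 0.36.

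Ms4a1, the gene of CD20, stood at 223, 175 and 176 CPM in the sensitized and 315, 277 and 311 CPM in the challenged libraries (0.65 ± 0.14, adjusted p = 0.00596), and Cd79a at 479, 381 and 416 CPM against 648, 563 and 675 CPM (0.56 ± 0.15, adjusted p = 0.0209, not passed without WT_se replicate 2, WT_se replicate 3 or WT_DTH replicate 3). Of 16 genes of mature B cells 11 rose and 0 fell, with a median of 0.67. In the knockout 0 rose and 1 fell, with a median of −0.09, and the difference was called at Ms4a1 (1.02 ± 0.19, adjusted p = 0.0282), Cd79b (1.02 ± 0.17, adjusted p = 0.0237) and Blk (0.90 ± 0.18, adjusted p = 0.0309). In the fit with the salivary share 0 of the 16 passed and the median was 0.04, with 2 salivary components 0 passed at a median of 0.40, and without WT_se replicate 2 the count was 7. The part of the gland share in the B cell rise was not tested otherwise. Bcl6, the factor of germinal centres, rose by 0.80 ± 0.13, and Ascl2, a factor of follicular helper T cells, had 23 counts in the sensitized and 0 in the challenged libraries. Of 14 germinal centre genes 1 rose and 1 fell, beside 9.77 and 8.97% of all genes. Of 17 plasma cell genes 4 rose and 2 fell. Prdm1, the factor that turns B cells into plasma cells and also acts in T and myeloid cells, rose from 4.78, 4.71 and 6.66 CPM to 22.5, 16.1 and 14.1 CPM (1.70 ± 0.25, adjusted p = 0.000748). Xbp1, a factor of secretory cells that plasma cells and gland cells share, fell by 0.47 on the log2 scale, and rose by 0.66 ± 0.14 in the knockout.

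**Figure D4:**
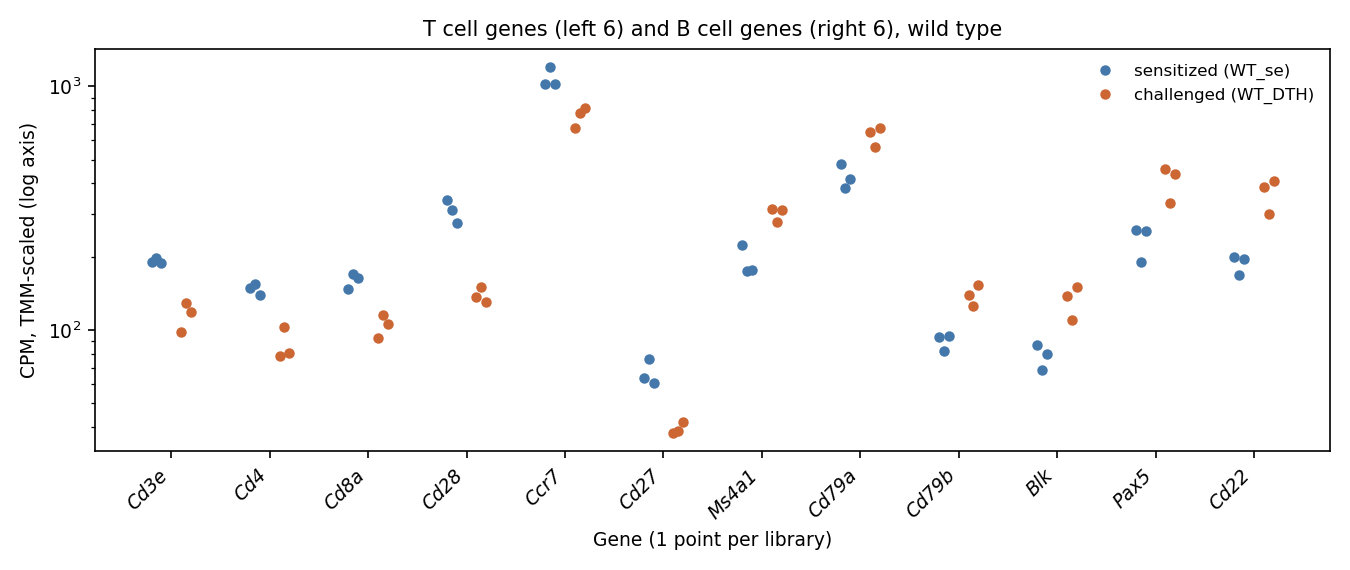
CPM (log axis) of 6 T cell genes and 6 B cell genes in each of the 3 sensitized and 3 challenged wild-type libraries, 1 point per library. Cd3e lies at 189 to 198 against 98.4 to 129 CPM, and Ms4a1 at 175 to 223 against 277 to 315 CPM.

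Of 30 cell cycle genes 6 rose and 0 fell, with a median of 0.25, and the 6 were Mcm2, Mcm3, Mcm5, Mcm6, Aurkb and E2f1. In the fits with the share and with 2 components 0 passed, at medians of 0.70 and 0.74. Mcm2, a subunit of the replicative helicase, stood at 45.1, 48.5 and 43.6 CPM against 58.0, 66.2 and 71.9 CPM (0.52 ± 0.09, adjusted p = 0.00152), and Mcm3, Mcm5 and Mcm6 rose by 0.54, 0.59 and 0.52. The proliferation markers Mki67 and Top2a did not pass. Mki67 stood at 28.5, 47.3 and 65.8 CPM against 40.4, 49.3 and 62.0 CPM and Top2a at 31.0, 40.3 and 59.6 CPM against 34.9, 44.7 and 64.5 CPM, so their groups overlapped. In the knockout 7 of the 30 fell, and the difference was called at Mcm2 (0.54 ± 0.12, adjusted p = 0.0434) and Cdk1 (1.53 ± 0.35, adjusted p = 0.0435). The wild-type count was 10 without WT_DTH replicate 1 and 4 without WT_se replicate 2 or WT_DTH replicate 3, and with leukocyte scaling it was 2. Mlkl, the executioner of necroptosis, stood at 0.806, 0.589 and 0.786 CPM against 8.41, 8.62 and 6.71 CPM (3.44 ± 0.35, adjusted p = 6e-05). It was among 9 of 20 cell death genes that rose, with 1 that fell. That one was Bcl2, which protects resting lymphocytes and fell by 0.34 on the log2 scale, while Mcl1 rose by 0.53 ± 0.08.

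Metabolic and stress-related lists are given next, beside shares of 9.77% of all genes that rose and 8.97% that fell. Of 20 ribosomal protein genes 0 were called, with log2 fold changes between −0.19 and 0.10. Of 20 nuclear genes of the respiratory chain 2 rose and 2 fell, close to the shares of all genes, with a median of 0.01. Ppargc1a, a coactivator of mitochondrial genes, had the largest change (−1.87 ± 0.37, adjusted p = 0.00412). Of 16 glycolysis genes 4 rose, among them the glucose transporter Slc2a1 (0.42 ± 0.11) and Pkm (0.42 ± 0.07). On the lipid list of 15 genes, Nr1h3 (LXRα) rose by 1.73 ± 0.21, and Apoe fell from 522, 557 and 449 CPM to 238, 246 and 307 CPM (−0.95 ± 0.16, adjusted p = 0.00174). The immediate early genes Fos (−0.23 ± 0.20), Fosb (−0.48 ± 0.19) and Jun (−0.56 ± 0.19) did not pass, and WT_se replicate 3 was the highest library at each. Of 10 glucocorticoid and metal responsive genes Klf9 and Mt1 fell by 0.68 and 1.01 on the log2 scale, and the difference to the knockout was called at both, as Mt1 rose by 1.33 ± 0.24 there. The stromal chemokines Ccl21a (−1.75 ± 0.52) and Cxcl12 (−1.39 ± 0.35) fell, and the adhesion molecule Icam1 rose by 0.89 ± 0.17. Among 20 stromal and endothelial genes 2 rose and 3 fell, beside the same shares of all genes. The 3 falls became 0 without WT_se replicate 2 and 1 without WT_se replicate 1 or any 1 challenged library. Of other tissues, 0 of 9 tested skeletal muscle genes passed, 1 of 8 adipocyte genes rose and 2 fell, 2 of 8 nerve genes fell, 1 of 6 platelet genes rose and 1 of 4 keratinocyte genes fell.

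Genes of the salivary gland fell. Of 18 tested salivary genes 16 fell, with a median of −2.26. Bpifa2, a secreted protein of the serous acini, stood at 42963, 65229 and 58728 CPM in the sensitized and 11574, 17892 and 10978 CPM in the challenged libraries (−2.04 ± 0.47, adjusted p = 0.00935). Its log2 fold change was 0.07 with the salivary share, which it makes up in part. Dcpp1, from a family of near copies, stood at 1933, 2416 and 12757 CPM against 204, 463 and 467 CPM (−3.91 ± 0.87, adjusted p = 0.00816), with WT_se replicate 3 far above the other two. The same library was highest at Dcpp2 (2683, 3247 and 24078 CPM against 12.2, 24.3 and 25.8 CPM) and at A2ml1 (255, 255 and 2604 CPM). A2ml1 had 127771 counts over the sensitized libraries and 0 over the challenged ones, so it was at least 57994-fold lower in the latter, and Klk1b16, a kallikrein at 61.6, 1.47 and 0.452 CPM in the sensitized libraries, was at least 1005-fold lower, a bound set mostly by WT_se replicate 1. Both were named for the size of their fall and are not on the salivary or the epithelial list. Neither passed when any 1 challenged library was left out (adjusted p up to 0.0628 and 0.0786), nor did Klk1b16 without WT_se replicate 1 (adjusted p = 0.088). Of 20 gland epithelial and myoepithelial genes 19 fell, among them the keratin Krt18 (41.2, 45.2 and 119 CPM against 6.48, 9.6 and 7.04 CPM) and Acta2, smooth muscle actin (7.14, 7.55 and 6.57 CPM against 0.591, 1.03 and 0.843 CPM). In the knockout 0 of the 18 salivary genes fell and 1 rose, with a median of 1.06, and 2 of the 20 epithelial genes rose, with a median of 1.18. The difference between genotypes was called at 10 of the 18 and 13 of the 20, all lower in wild type. The salivary falls numbered 9 without WT_DTH replicate 3, and also 9 without WT_se replicate 3 and WT_DTH replicate 2 together.

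All 13 mitochondrially encoded protein genes fell, with log2 fold changes of −2.50 to −1.88. mt-Nd1, a subunit of complex I, stood at 17624, 16723 and 11924 CPM against 3454, 4725 and 4400 CPM (−1.88 ± 0.32, adjusted p = 0.00174). In the knockout 0 of the 13 passed, with a median of −0.29. With 2 salivary components the wild-type median was −1.54 and 0 passed. The globin genes Hba-a1 (4012, 2055 and 3807 CPM against 562, 522 and 513 CPM) and Hbb-bs (5150, 2605 and 5226 CPM against 834, 807 and 747 CPM) fell (−2.63 ± 0.55 and −2.44 ± 0.53). Each has a near-identical copy in the genome. Of 11 tested erythroid genes 6 fell, with a median of −2.50, and in the knockout 0 passed, with a median of −1.44. With the salivary share the wild-type erythroid median was −2.99 and with 2 salivary components −2.20, and 0 passed in either fit. Whether these falls come from the gland was not tested beyond these values.

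The rises of wild type were found again in the knockout more often than its falls were. The 2 comparisons share no library, though they share the model's estimate of spread. Of 1957 genes that rose in wild type, 1736 (88.7%) had the same sign in the knockout, and 887 were called there, which is 45.3% of the wild-type and 76.2% of the knockout rises. Of 1798 that fell, 1070 (59.5%) had the same sign, and 269 were called, 15% of the wild-type and 34.8% of the knockout falls. Over all genes the same sign was found at 62.4%. Of the 522 rises of more than 2-fold 480 (92%) had the same sign and 22 (4.21%) a called difference between genotypes. Of the 996 falls of more than 2-fold 379 (38.1%) had the same sign and 297 (29.8%) a called difference. With 2 salivary components the wild-type rises kept their sign at 99.1% of genes and the falls at 95.3%, beside 75% of all genes. Rises and falls were picked in these same libraries, so a kept sign is no separate evidence. The median of the rises was 0.51 in place of 0.58, and that of the falls −0.63 in place of −1.19. Of the 50 genes that passed in the same direction with and without these components 48 rose, among them Lgmn, Plac8, Ms4a6d, Tgfbi, Ifitm3, Mmp14, Cxcl10, Slamf8, Stat2 and Gbp2, and 2 fell, Timd4 and Kcnip2, a potassium channel subunit (5.84, 7.95 and 5.81 CPM against 2.48, 2.94 and 1.95 CPM).

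**Figure D5:**
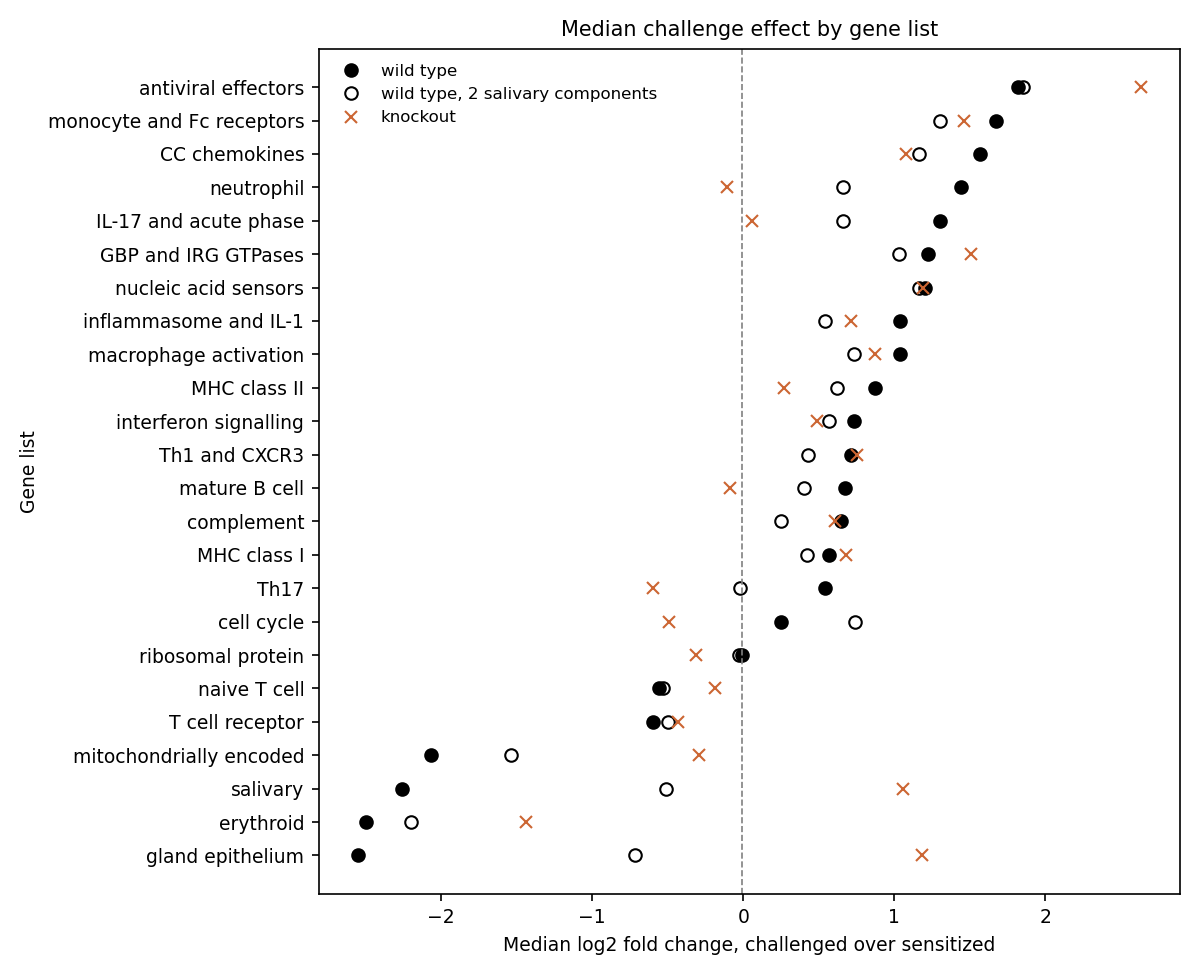
Median log2 fold change on challenge of 24 gene lists in wild type (filled circles), in wild type with 2 salivary components in the model (open circles) and in the knockout (crosses), with the median of all genes as a dashed line. Antiviral effectors lie at 1.82, 1.85 and 2.63, and mature B cell genes at 0.67, 0.40 and −0.09. The salivary list, from which the components were made, lies at −2.26, −0.51 and 1.06, so its shift with them was built in.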

How the data were processed

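Total RNA of mandibular lymph nodes was sequenced from 12 libraries in 4 groups of 3, made with a directional kit per the labels' protocols. The authors deposited 1 table of estimated counts, whole numbers as deposited, for 56941 gene IDs. The tools named are fastp 0.23.2 (read trimming), HISAT2 2.2.1 (alignment) and StringTie 2.2.1 (quantification), with the build GRCm39, per the submitters' processing notes. The annotation, the strand setting and the step from StringTie to counts are not given in the sources used here, so reads of a gene and an overlapping antisense gene may not be told apart. Totals ran from 36946696 to 58405576 counts, and 24767 IDs were at 0 in every library. Symbols were found for 51948 IDs in an older GENCODE table used for names only. The 4993 IDs without a symbol held 0.326 to 0.543% of counts.

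Genes were kept with filterByExpr (minimum count 10), scaled by TMM and tested with edgeR 4.0.16 (quasi-likelihood) in 1 model with a mean for each of the 4 groups over all 12 libraries. P-values are two-sided and adjusted by Benjamini-Hochberg over the 20034 genes, with a threshold of 0.05. The standard error of a log2 fold change was taken as its size over the square root of the F value. Of 49 gene lists with 793 entries, 791 entries matched. The lists and the genes named were chosen with earlier results of these data known. Named were a fixed set of cytokine and interferon genes, the 10 largest changes in each direction without overlap between the groups, the same among genes also called in the knockout, the first 3 members of each list and up to 4 of smallest p, and those called with and without 2 salivary components, of which the text names a part; some genes are not reported here. Members named because they were exceptions within a list (such as Mavs, Irgm2 or H2-Ob), and Oasl2, Aurkb and E2f1, were chosen after their values were seen. The fit was tested on simulated data with known changes, 50 genes at each fold. It recovered 15 of 50 at 1.5-fold, 28 at 2-fold, 43 at 4-fold and 49 at 8-fold. Of its 138 calls 3 lay outside the changed genes. Alternatives were other scalings, filters and covariates, a replicate block, DESeq2 1.42.0, the wild-type libraries alone and leaving out libraries.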

Additional observations from a re-analysis of the deposited data

Results flagged for a closer look

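The difference of the challenge effect between wild type and knockout was tested for every gene named, and passed an adjusted p of 0.05 (edgeR quasi-likelihood test) at 19 of them. Values are log2 fold change in wild type minus that in the knockout.

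At 11 genes the effect was higher in wild type. The antigen presentation genes were H2-Aa at 0.82, H2-Oa at 1.02 and Lgmn at 0.57. The B cell genes were Ms4a1 at 1.02, Cd79b at 1.02 and Blk at 0.90. Plac8 gave 0.74, Mcm2 0.54 and Cdk1 1.53. Il17a gave 1.99, from 0.48 in wild type and −1.51 in the knockout. Inhba gave 7.47, a fitted value that depends on the prior count because the sensitized wild-type libraries were at 0.

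At the other 8 genes it was lower in wild type. The gland genes were Dcpp2 at −11.88, Dcpp1 at −6.19, Krt18 at −4.83 and Acta2 at −3.99. Mt1, a metallothionein, gave −2.34, from −1.01 in wild type and 1.33 in the knockout. Xbp1 gave −1.13, Klf9 −1.08 and the T cell gene Cd3e −0.64. The salivary share fell by 8.02 percentage points between the wild-type groups and its mean was higher after challenge in the knockout (exact permutation p = 0.3), and its part in these differences was not tested.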

How the results depend on the processing

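The reported fit gave 3755 calls in wild type, 1957 higher and 1798 lower. In separate fits the salivary share covariate gave 272 (236 and 36) and 2 salivary components gave 52 (49 and 3). Of the reported calls, 48 rises and 2 falls passed with 2 salivary components. Without the 2 libraries of highest salivary share in their groups 2436 of 20564 genes passed, with 1039 lower. Scaling to pan-leukocyte genes gave 1034 higher and 2855 lower, and shifted the median log2 fold change of all genes by −0.15. Leaving out 1 wild-type library at a time gave 2566 to 3136 calls, 1472 to 1908 higher and 911 to 1280 lower. Other scalings and filters, the wild-type libraries alone, the sex covariate and the DESeq2 Wald test gave 3251 to 4557 calls, within 1.5 times the reported count. Without a filter on low counts rises made up 62.2% of calls in place of 52.1%. The cause of these shifts was not tested. The salivary share fell by 8.02 percentage points over all counts and fell by 9.97 outside mitochondrial genes. The ISRE match stood at 7.92% of promoters of genes that rose and 17.2% of those more than 2-fold higher.

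Of 158 genes named that were called, 109 kept call and direction in all 16 settings without a salivary covariate, and 22 in all 18. With the salivary share 47 kept their call, and with 2 salivary components 24. Without 1 library at a time 40 of the 158 lost their call at least once. It was lost without WT_DTH replicate 3 at Bcl2, WT_se replicate 1 or 3 at H2-K1, WT_se replicate 1 or 2 at Egr2, WT_DTH replicate 1 at Ccr7, WT_se replicate 3 at Creg2, Lgals9 and Mt1, WT_se replicate 1 at S100a9, WT_se replicate 2 at Tgfb1, and WT_se replicate 2 or WT_DTH replicate 3 at Cxcl12 and E2f1. Any of 3 or more libraries did so at A2ml1, Ascl2, Aurkb, B2m, Batf, Ccl21a, Ccr8, Cd40lg, Cd79a, Cma1, Cpa3, Cyp4f37, Ddx4, Ifngr2, Ikzf2, Il17re, Il7r, Klk1b16, Lyve1, Mavs, Mcpt4, Pdcd1lg2, Serping1, Slc2a1, Tbx21, Tmprss6, Tnf, Tpsb2 and Xbp1, with adjusted p up to 0.22 (Lyve1). The sign turned at Bpifa2 with the salivary share (0.07) and at Tnf with 2 salivary components (−0.11).

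Replicate numbers are shared between the groups, and same-numbered libraries deviated together weakly at most (correlations of −0.098 to 0.141). Between the wild-type groups these correlations were 0.026, 0.008 and −0.002. Between the genotypes within a state they were all above 0, at 0.043 to 0.141. Same-numbered libraries were taken to share only a number. A replicate block gave 3400 calls, 1855 higher and 1545 lower. With 3 libraries a group, a gene that did not pass is not shown to be unchanged.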
